A study of Mus musculus with 10 samples.

Results

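Mmu-miR-146a and mmu-miR-146b (hereafter miR-146a and miR-146b), 2 mouse miRNAs with the same seed, were measured in the total RNA of proliferating C2C12 cells, an established line of mouse muscle precursors (myoblasts, strain C3H). The members were chosen by name, as the guide strands of both hairpins, and were 2 of the 375 miRNA assays of the TaqMan qPCR-array called Array A and 2 of the 617 mouse miRNA probes of the microarray. All samples were aliquots of 1 RNA from cells in growth medium with fetal bovine serum. No treatment, genotype or second culture was compared, and every spread reported here is therefore technical. Array A was run on 4 cards with 500 ng of RNA each, from 2 reverse transcription reactions (RT1 and RT2) assayed on day 1 and on day 2, and the microarray on 2 chips with 8 μg each. Array B, with 2 cards without and 2 with pre-amplification, carried no assay for either guide strand.

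A miRNA guides the Argonaute proteins to partly complementary sites in mRNAs, mainly through its seed, the bases 2 to 8 from its 5′ end. MiR-146a and miR-146b are known from cells of the innate immune system, where NF-κB, the transcription factor activated by Toll-like and interleukin receptors, induces them. Both repress Irak1 and Traf6, signaling proteins downstream of the same receptors, and so form a negative feedback loop. MiR-146b is also among the miRNAs that are raised in human muscle disorders.

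The mature sequences are shown because the pair can be told apart only near its 3′ end, and each platform had to separate the members there. They are RefSeq sequences of mouse build GRCm38.p6, identical to the target sequences given for the microarray probes, with the seed in capitals.
mmu-miR-146a: uGAGAACUgaauuccauggguu
mmu-miR-146b: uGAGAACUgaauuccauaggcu
The members shared 20 of 22 bases, and miR-146b differed from miR-146a by G18A and U21C, counted from the 5′ end. Both had a GC content of 40.9%. Among the 617 probes of the microarray, and among the 1738 mature miRNAs in the RefSeq table, the seed GAGAACU occurred in these 2 only. MiR-146a lay at chr11:43374435-43374456 on the minus strand within the gene Mir146, which overlapped no other annotated gene. MiR-146b lay at chr19:46342790-46342811 on the plus strand within Mir146b, inside the span of the long noncoding RNA Gm36493, and Nfkb2, which encodes a subunit of NF-κB, was among the 5 nearest protein-coding genes on 1 side of it.

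The hairpins are shown to place each guide strand, in capitals, on the 5′ arm of its precursor.
Mir146: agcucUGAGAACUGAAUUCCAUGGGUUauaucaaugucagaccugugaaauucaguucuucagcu
Mir146b: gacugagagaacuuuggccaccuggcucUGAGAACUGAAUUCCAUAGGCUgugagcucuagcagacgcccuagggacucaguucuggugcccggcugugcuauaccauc
The hairpins were 65 and 109 bases long, and the guide began at base 6 of the former and at base 29 of the latter. Outside the guide the precursors were not compared.

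The cards were comparable in depth. Between 188 and 195 of the 375 assays had a Ct of 35 or less on a card, where Ct is the PCR cycle at which the fluorescence crossed the threshold, so that a lower Ct means more miRNA. MammU6, the small nuclear RNA used as the reference, had a Ct of 19.573 to 19.770, and ath-miR159a, a plant miRNA used as the negative control, was at 40, the value of an undetermined well, on all 4 cards. Of 5 myoblast markers 4 were detectable (miR-206 on Array B, miR-133a, miR-133b and miR-486). The mouse assay for miR-1 had a mean Ct of 35.4, with 3 of 4 cards at 35 or less, whereas the rat assay for miR-1 was detectable. None of 7 epithelial markers nor those of neurons (miR-124) and liver (miR-122) had a mean Ct of 35 or less. However, miR-200c, miR-141 and miR-429 of the epithelial markers and miR-124 each had a Ct of 35 or less on 1 of 4 cards. Of the endothelial markers, miR-126-3p was detectable (mean Ct 32.1, 4 of 4 cards at 35 or less) and miR-126-5p, at 35.3, was not. Of 5 blood cell markers 3 were detectable, at mean Ct values between 30.6 and 40 for the list, with miR-142-3p the lowest and the erythroid miR-451 at 40 on every card. The part that RNA from other cells or from serum had in the level of the members was not tested.

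MiR-146b was clearly and evenly detected. Its Ct was 28.728 on RT1 day 1, 28.892 on RT1 day 2, 28.957 on RT2 day 1 and 28.719 on RT2 day 2. The 4 values lay within 0.238 cycles of each other, and neither reaction nor day stood apart. The mean Ct was 28.8 ± 0.119 (SD, n = 4 cards), which ranked 55th of the 375 assays from the lowest Ct. ΔCt, the Ct minus that of MammU6 on the same card, was 9.155, 9.122, 9.352 and 9.138 in the same order, with a mean of 9.19 ± 0.108.

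MiR-146a was close to the limit of detection. Its Ct was 35.956 on RT1 day 1, 33.447 on RT1 day 2, 33.798 on RT2 day 1 and 33.827 on RT2 day 2. The card of RT1 on day 1 read high, by 2.27 cycles against the mean of the other 3 cards, and was the only one past the limit of 35. The mean Ct was 34.3 ± 1.15 (SD, n = 4 cards) and the rank was 167 of 375. ΔCt was 16.383, 13.677, 14.193 and 14.246, with a mean of 14.6 ± 1.20. Without the card of RT1 on day 1, the mean Ct was 33.7 ± 0.212 and the mean ΔCt was 14.0 ± 0.314 (n = 3 cards).

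By the mean Ct of 35 or less that was used for detection, both members were detectable, as were 182 of 375 assays (48.5%). Under a stricter demand, 35 cycles as the upper limit on each card alone, 158 assays passed and miR-146a did not. MiR-146a thus counted as present on 3 of 4 cards, and miR-146b on 4 of 4. How well the assay of each member told it apart from the other member was not tested.

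**Figure D1:**
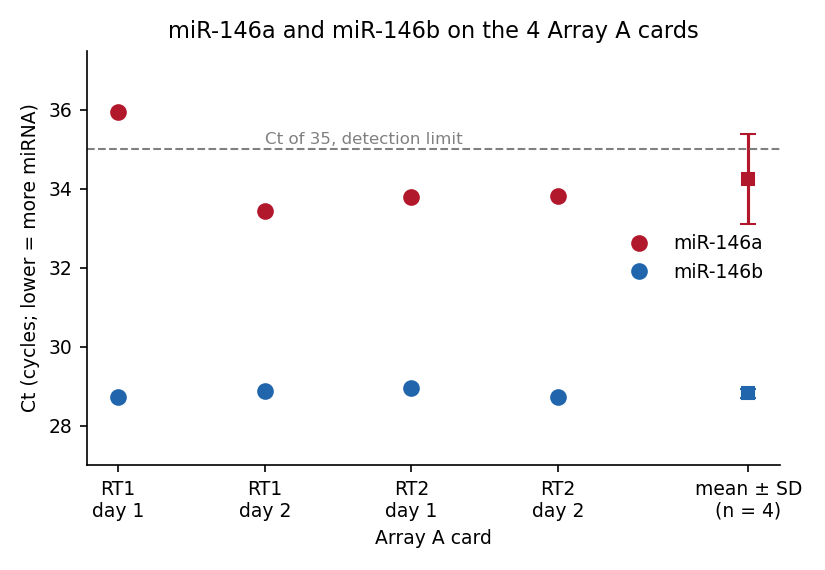
Ct of miR-146a (red) and miR-146b (blue) on each of the 4 Array A cards, in cycles, with the mean ± SD over the cards as squares at the right and the detection limit of 35 as a dashed line. MiR-146b lay between 28.719 and 28.957 on all cards, whereas miR-146a lay between 33.447 and 33.827 on 3 cards and at 35.956 on RT1 day 1.

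MiR-146a had the higher Ct on every card. The gap between the members on the same card, in which the reference cancels, was 7.228 cycles on RT1 day 1, 4.555 on RT1 day 2, 4.841 on RT2 day 1 and 5.108 on RT2 day 2. The values of the members did not overlap, and the smallest gap was larger than the range of either miRNA over the cards. The mean gap was 5.43 ± 1.22 cycles (SD, n = 4 cards). An exact sign-flip permutation test over the 4 cards gave a two-sided p of 0.125, the smallest that 16 sign patterns allow. Without the card of RT1 on day 1 the mean gap was 4.83 ± 0.277 cycles. The pair of assays can differ in efficiency, and no dilution series of the members was analysed here, so the gap is one of Ct and was not turned into a ratio of copies.

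The spread of each member was compared with that of the other detectable miRNAs whose mean Ct lay within 1 cycle of its own. For miR-146b, the SD of 0.119 cycles stood beside a median SD of 0.142 over 43 such miRNAs, of which 28 had a larger and 15 a smaller SD. For miR-146a, the SD of 1.15 cycles stood beside a median of 0.974 over 30 miRNAs, of which 12 had a larger SD. Of these 30, 21 also crossed 35 on at least 1 card, and 5 had their highest Ct on RT1 day 1. The SD of each member thus lay within the range of its neighbors in Ct. Over all 182 detectable miRNAs, RT1 day 1 held the highest Ct of 31, fewer than any other card.

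**Figure D2:**
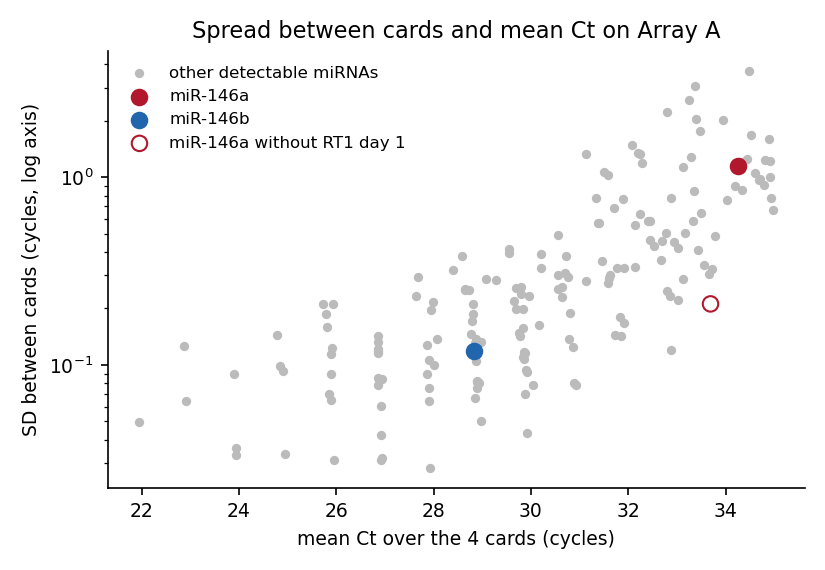
SD of Ct over the 4 cards (cycles, log axis) against the mean Ct for the 182 detectable miRNAs of Array A, with miR-146a in red, miR-146b in blue and miR-146a without the card of RT1 on day 1 as an open circle. MiR-146b (SD 0.119) and miR-146a (SD 1.15) lay within the cloud of miRNAs of similar Ct, and the SD of miR-146a fell to 0.212 on the other 3 cards.

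Ct values on Array A were not spread evenly within a cycle. Among the 89 miRNAs whose mean Ct was at most 30, 278 of 356 wells (78.1%) had a Ct at 0.7 or more past a whole cycle, against 166 of 372 wells (44.6%) of the 93 miRNAs above 30 to 35. All 4 wells of miR-146b and 3 of 4 wells of miR-146a lay in that part of the cycle. Its share in the small SD of miR-146b, and in the likeness to other miRNAs given next, was not tested.

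The miRNAs nearest to each member were found by the root mean square difference in ΔCt over the 4 cards. For miR-146b they were miR-196b (0.0754 cycles, mean Ct 28.9), which lies in the Hox clusters, miR-320 (0.0922 cycles, mean Ct 28.9) and the muscle miRNA miR-133b (0.0964 cycles, mean Ct 28.8). For miR-146a they were miR-361 (0.971 cycles, mean Ct 33.8), miR-7a (0.980 cycles, mean Ct 34.0) and miR-190 (1.03 cycles, mean Ct 35.3). MiR-190 also had its highest Ct, 36.928, on RT1 day 1, against 34.390 to 35.108 on the other cards. By this root mean square the neighbors of miR-146a were thus about a cycle away, and those of miR-146b a small part of a cycle. In mean ΔCt, miR-361, miR-7a and miR-190 differed from miR-146a by -0.48, -0.225 and 1.02 cycles. This is a description over 4 cards of 1 RNA.

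Other miRNAs linked to NF-κB or Toll-like receptor signaling were mostly detectable. Array A had assays for 8 of the 9 in the list, of which 7 were detectable, with a median of the mean Ct of 28.9 over the 8. Over all 375 assays, 182 (48.5%) were detectable, with a median of the mean Ct of 35.3. The list was chosen with earlier results of these data known and holds miRNAs abundant in many cell types, so the shares were not tested against each other. MiR-155, which is induced in mouse macrophages by Toll-like receptor ligands, had a mean Ct of 28.9 ± 0.131 (n = 4 cards). MiR-9, induced by the same ligands in human monocytes, was at 28.9 ± 0.118. Both lay beside miR-146b, and their ranges over the cards, 28.688 to 28.966 and 28.715 to 28.980, overlapped its range. MiR-21 (25.7 ± 0.211) and miR-125b-5p (25.9 ± 0.0892), abundant in many cell types, were lower in Ct. MiR-301a (28.1 ± 0.138), which represses an inhibitor of NF-κB in human cells, and miR-132 (29.6 ± 0.396) lay to either side. The myeloid miR-223, at 34.4 ± 1.26, was as close to the limit as miR-146a, with 2 of 4 cards at 35 or less. MiR-147, induced in mouse macrophages, was undetermined on all 4 cards. By mean Ct miR-146a was thus nearest to miR-223 in the list, and miR-146b to miR-155 and miR-9. Such closeness was not particular to the list, as 30 detectable miRNAs lay within 1 cycle of miR-146a and 43 within 1 cycle of miR-146b.

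Reverse transcription was compared between RT1 and RT2. For miR-146b, ΔCt was 0.11 cycles higher in RT2 (standard error 0.158, 95% interval -0.36 to 0.58, adjusted p = 0.871 from limma), next to a median difference of 0.12 over all 182 miRNAs. Against the other endogenous controls as the reference, that median was -0.09 and the difference of miR-146b was -0.10, so it moved with the reference. For miR-146a, ΔCt was 0.81 cycles lower in RT2 (difference -0.81, standard error 1.04, 95% interval -3.91 to 2.29, adjusted p = 0.871 from limma). The reactions overlapped in both miRNAs. Limma called 4 of 182 miRNAs (2.2%) between the reactions, and neither member was among them. The count fell to 1 with the replicate block and to 0 to 1 with any card left out. For miR-146a the direction rested on the card of RT1 on day 1. The difference was -2.19 cycles on day 1 and 0.57 on day 2, and without that card it was 0.54 (adjusted p = 0.629 from limma), whereas without the card of RT1 on day 2 it was -2.16 (adjusted p = 0.0868). With a card left out, 1 reaction or day was a lone card, assumed to vary like the pair that was left, and such p-values rest on the spread of that pair together with the moderation over all miRNAs.

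Between the days, miR-146b had a ΔCt 0.12 cycles lower on day 2 (difference -0.12, standard error 0.184, 95% interval -0.66 to 0.41, adjusted p = 0.994 from limma). MiR-146a had a ΔCt 1.33 cycles lower on day 2 (difference -1.33, standard error 0.859, 95% interval -3.82 to 1.17, adjusted p = 0.994 from limma). Limma called 0 of 182 miRNAs (0%) between the days at an adjusted p under 0.05, with 8 at an unadjusted p under 0.05, and the methods' t-test called 1 at its own threshold, an unadjusted p under 0.01, and 0 after Benjamini-Hochberg adjustment. The difference of miR-146a was -2.71 cycles in RT1 and 0.05 in RT2. Without the card of RT1 on day 1 it was -0.23, and without the card of RT2 on day 1 it was -2.42 (adjusted p = 0.210 from limma). In the main fit the intervals of miR-146b exclude a difference of 1 cycle between reactions or days, and those of miR-146a do not. The cards of a reaction shared its reverse transcription product, so the intervals between reactions measure the spread between cards and not between repeated reactions. Of the list linked to NF-κB, 7 miRNAs were tested in both comparisons and 0 were called in either direction by limma, with 0 at an unadjusted p under 0.05. Their median differences were 0.20 cycles between the reactions and -0.05 between the days, against 0.12 and -0.01 over all miRNAs.

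**Figure D3:**
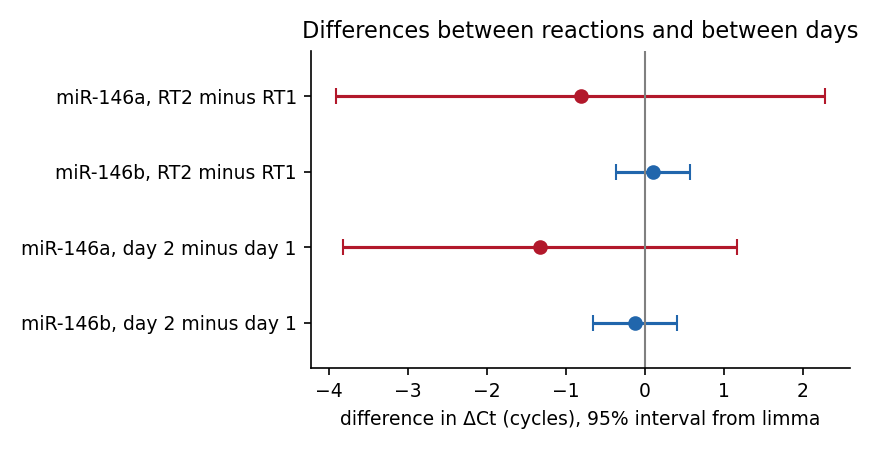
Differences in ΔCt (cycles) of miR-146a (red) and miR-146b (blue) between the reverse transcription reactions and between the days, with 95% intervals from limma over 4 cards. All 4 intervals include 0, and those of miR-146a, such as -3.91 to 2.29 between the reactions, are several times wider than those of miR-146b.

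On the microarray, which measured the same RNA by hybridization, neither miRNA was detectable. The authors' background-subtracted signal of miR-146a, the mean of 5 spots, was 15.6 ± 6.24 (SD over spots) on chip 1 and 27.2 ± 14.4 on chip 2. That of miR-146b was 19.8 ± 7.62 on chip 1 and 31.7 ± 11.2 on chip 2. All 4 means were under 32, the signal that counted as detectable, which 137 of 617 probes (22.2%) reached on both chips. The mean of miR-146b on chip 2 was just under it.

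The scanner densities before subtraction lay near those of empty spots. On chip 1 the 5 spots of miR-146a had densities of 247.35, 249.99, 237.86, 236.10 and 250.66, and those of miR-146b had 249.31, 243.89, 246.78, 241.31 and 261.62. The 579 empty spots of chip 1 had a median of 224.94 and a 97.5th percentile of 245.7, which 3 of 5 spots of each member passed. On chip 2 the spots had densities of 325.11, 325.49, 322.39, 327.79 and 320.15 for miR-146a and of 326.44, 331.79, 321.32, 327.40 and 336.21 for miR-146b. The empty spots of chip 2 had a median of 310.07 and a 97.5th percentile of 339.8, which 0 of 5 spots of either member passed. The spots of both members were thus above the median of the empty spots on both chips, and within or just past their upper range.

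The background that was subtracted was not the same in all columns of chip 2. From density and signal, the authors' background was 283.7 for every mouse spot in column 3 of chip 2, and had medians of 300.3 to 307.1 in its other columns. The 12 empty spots in column 3 of that chip had a median density of 306.3, close to the 310.1 of the other empty spots. On chip 1 the background of column 3 was 228.7, within the 224.9 to 230.2 of the other columns. Each member had 2 of its 5 spots in column 3.

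In those 2 spots on chip 2, the signals were 41.39 and 44.06 for miR-146a and 42.72 and 43.68 for miR-146b, whereas the other 3 spots had 13.02 to 19.17 and 18.14 to 29.08. The densities of the same spots did not stand apart, at 325.11 and 327.79 for miR-146a against 320.15 to 325.49 in its other spots. With the spots of column 3 left out, the mean signals were 17.3 on chip 1 and 16.9 on chip 2 for miR-146a, and 21.9 and 24.0 for miR-146b. With the empty spots of the same column as the background they were 16.1 and 17.6, and 20.3 and 22.1, respectively. Over all 116 mouse spots of column 3, the median signal was 21.8 on chip 1 and 47.6 on chip 2, against 17.1 and 21.2 in the other columns.

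**Figure D4:**
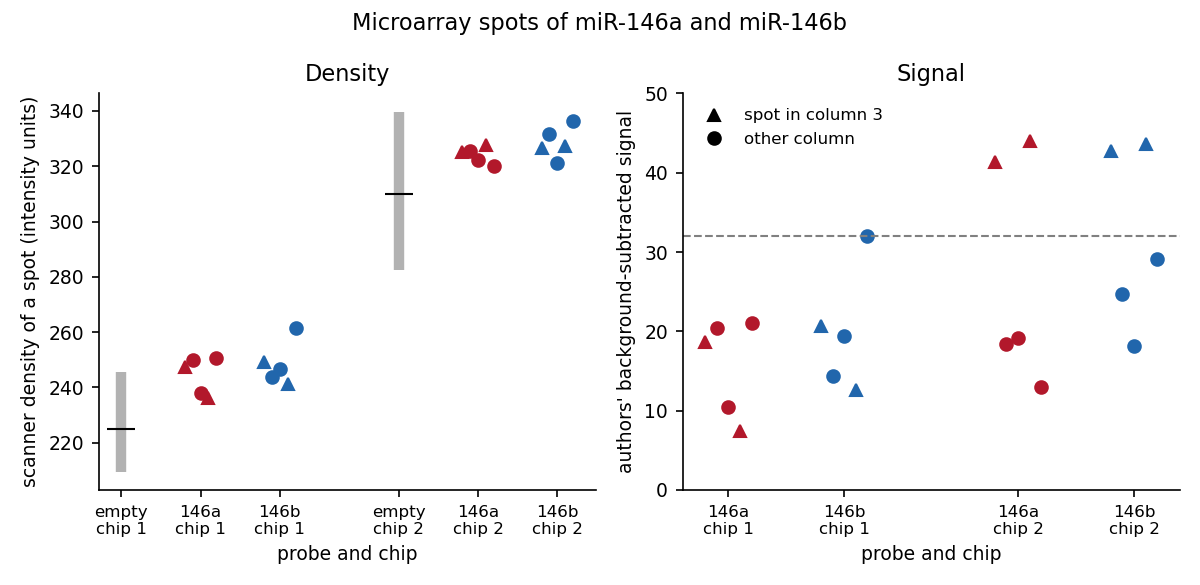
Microarray spots of miR-146a (red) and miR-146b (blue) on both chips, with the scanner density at the left, where grey bars span the 2.5th to 97.5th percentile of 579 empty spots and black lines mark their median, and the authors' signal at the right, where the dashed line is the detection limit of 32. Triangles are spots in column 3, which had signals of 41.39 to 44.06 on chip 2 although their densities (325.11 to 327.79) lay among those of the other spots.

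The chips were compared with limma on log2 density, after normexp background correction and loess. The members lay under the signal of 32 and so were not in the main test, which called 53 of 137 miRNAs (38.7%). With all 617 probes in the test it called 42 (6.81%), and neither member was among them. For probes this near to empty spots, the differences describe the densities and say nothing of the amount of miRNA. The log2 difference between chip 2 and chip 1 was -0.0027 for miR-146a (95% interval -0.18 to 0.17) and 0.0017 for miR-146b (95% interval -0.18 to 0.18), each with an adjusted p of 0.998 from limma. The log2 difference of the authors' mean signals, by contrast, was 0.80 for miR-146a and 0.68 for miR-146b, with no test. These tests compare 2 chips of 1 RNA, and the spots of a chip are not independent samples. Since both probes were near the level of empty spots, their densities bound the hybridized miRNA only from above.

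Both an assay on Array A and a probe on the microarray existed for 173 of the detectable miRNAs. Of these, 86 were detectable on both platforms and 87, with both members, only on Array A. The members therefore had no place in the relation between the platforms, in which ΔCt and log2 signal had a Pearson's r of -0.422 and a Spearman's rho of -0.471 over the 86 miRNAs (a description across miRNAs, which share the cards and chips).

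By mean Ct, miR-146b was among the lower of the miRNAs seen only by the qPCR-array. Of 40 other miRNAs within 1 cycle of its mean Ct, 27 (67.5%) reached a signal of 32 on both chips, as did 45 of the 279 with a higher mean Ct. MiR-155, with a mean Ct of 28.9, had signals of 189.9 on chip 1 and 360.5 on chip 2, whereas miR-9 and miR-301a, also at a Ct under 29, had signals of 11.9 to 15.9. For miR-146a, 5 of 33 such miRNAs (15.2%) reached 32 on both chips. A missing microarray signal was thus usual at the Ct of miR-146a, and was found for 13 of 40 miRNAs at the Ct of miR-146b. In the list linked to NF-κB, 4 miRNAs (miR-155, miR-132, miR-21 and miR-125b-5p) were detectable on the microarray. Between the chips, limma called 1 of these 4 higher on chip 2, miR-155 (log2 difference 0.88, adjusted p = 1.82e-05), and 1 lower, miR-125b-5p (log2 difference -0.26, adjusted p = 0.00478), with 3 of 4 at an unadjusted p under 0.05. Their median log2 difference was -0.06, against -0.0085 over all 137 miRNAs. Of all 137, limma called 53 (38.7%), 32 higher on chip 2 and 21 lower, and 65 were at an unadjusted p under 0.05.

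**Figure D5:**
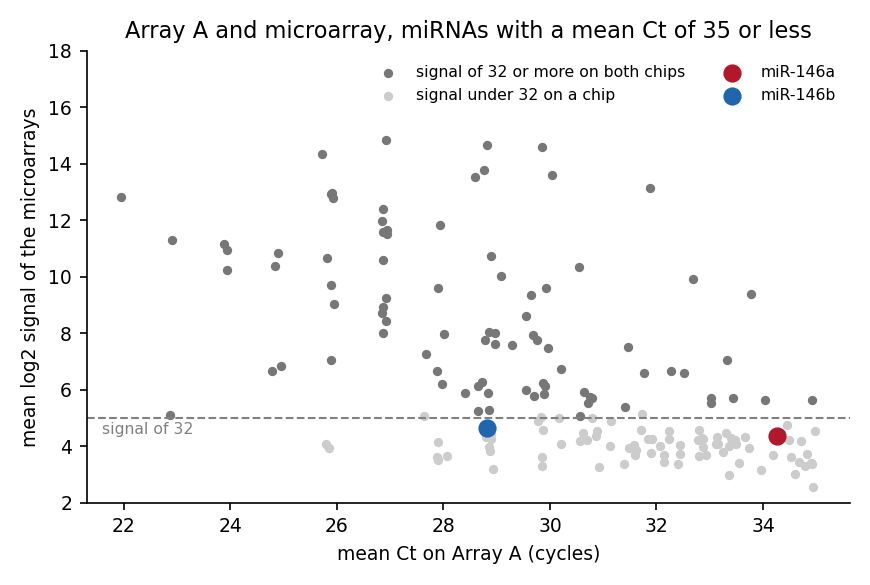
Mean log2 signal of the 2 microarrays against mean Ct on Array A (cycles) for the 173 miRNAs detectable on Array A that had a probe, with those detectable on both chips in dark grey, the others in light grey, miR-146a in red and miR-146b in blue. Both members lay under the dashed line at a signal of 32, miR-146b at a mean Ct of 28.8, where 27 of 40 neighbors were detectable.

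The opposite strand of the miR-146b hairpin, miR-146b*, was measured on Array B and is shown because it comes from the same precursor.
mmu-miR-146b*: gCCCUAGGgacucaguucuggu
Without pre-amplification its Ct was 36.162 and 35.019 on the 2 cards, past the limit of 35, and with pre-amplification it was 32.967 and 34.054. The mean Ct fell by 2.08 cycles with pre-amplification, whereas MammU6 fell by 7.79. The 60 miRNAs that were detectable without pre-amplification fell by a median of 7.77 cycles (2.93 to 10.0), so the decrement of miR-146b* was smaller than that of each of them. MiR-146b* was itself not among the 60, and other miRNAs past the limit without pre-amplification were not compared with it. Its signal on the microarray was 7.32 on chip 1 and 21.3 on chip 2. The precursor was thus represented by a guide strand at a mean Ct of 28.8 on Array A and by a star strand near the limit on Array B, on different cards with different input.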

How the data were processed

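Total RNA of 1 C2C12 preparation was measured on 4 Array A cards, 4 Array B cards and 2 microarrays. The authors deposited raw Ct values in cycles (automatic baseline) and the same values minus MammU6. Raw values were used and ΔCt was recomputed. On the microarray side, the deposited values were each spot's scanner density and an intensity from which the authors had subtracted background. The subtracted background was recovered as density minus intensity. Commas in the densities were removed.

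Cards were compared with limma 3.58.1 (R 4.3.3) on ΔCt of the 182 miRNAs detectable by their mean Ct (at most 35), and chips with limma on log2 spot densities after normexp (offset 50) and cyclic loess. P-values were adjusted by Benjamini-Hochberg over all miRNAs tested. Other steps used scipy 1.17.1, pandas 2.3.3 and numpy 2.4.6 in Python 3.11.15, and plots matplotlib 3.10.9. In simulated Array A data of 182 miRNAs, limma recovered 6 of 20 changes of 1 cycle, 17 of 20 of 2 cycles and 20 of 20 of 4 cycles, and called 1 of 122 unchanged miRNAs. The simulated cards were independent and normal, and each miRNA had the median SD of miRNAs with a similar mean Ct. Larger SDs of single miRNAs were thus not simulated. Recovery was pooled over all levels of Ct, so it does not describe the power for miR-146a.

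The labels give the day and the reverse transcription reaction, which pair the cards. Deviations of cards of the same day correlated at 0.0255, and of cards of the same reaction at 0.325, over 182 miRNAs. Fits with this replicate block, other references, filters and normalizations, and the methods' t-test were run as alternatives, as was leaving out 1 card at a time. The members, the list linked to NF-κB, the markers and the rule for the miRNAs named (the members, the controls, the lists, the 3 assays nearest to each member in ΔCt and the star strand) were chosen with earlier results of these data known. The 2 alternatives on column 3 of the microarray were added after its values were seen. MiR-181b and miR-144 of the lists were not analysed here.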

Additional observations from a re-analysis of the deposited data

Results flagged for a closer look

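MiR-146a had a Ct of 35.956 on RT1 day 1, and the gap to the nearest other card took 0.849 of the range of the 4 cards, past the critical value of Dixon's test at the 95% level. Its ΔCt on that card, 16.383, took 0.790 and did not pass. MiR-146b had a ΔCt of 9.352 on RT2 day 1 with a share of 0.857, within a range far smaller than that of miR-146a, while its raw Ct gave 0.273. Chance gives such a result in about 1 of 20 groups, and 13 of the 182 detectable miRNAs (7.14%) passed on raw Ct, 4 of them with RT1 day 1 as the card apart.

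The change of miR-146a from day 1 to day 2 was -2.71 cycles in RT1 and 0.05 in RT2, a difference of 2.76 cycles in opposite directions. The difference was not tested, since it leaves no residual degrees of freedom. Of the 182 miRNAs, 110 (60.4%) changed in opposite directions in the 2 reactions, and 9 had a larger difference than miR-146a.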

How the results depend on the processing

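Neither member was called between reactions or days under any of the alternatives that tested it, with adjusted p-values of 0.0868 or more for miR-146a, whose lowest value came from a fit with a lone card in 1 reaction, and 0.754 or more for miR-146b. The difference between reactions turned for miR-146a to 0.54 cycles without RT1 replicate 1 (-2.16 to 0.54 with a card left out), and for miR-146b to -0.10 with the other endogenous controls, to -0.0030 with the mean of the detectable miRNAs as the reference and to -5e-04 without RT2 replicate 1 (-5e-04 to 0.21 with a card left out). MiR-146a was not tested at a Ct of 35 or less on all cards or a mean Ct of 32 or less. With each card left out, the gap between the members was 4.83 to 5.73 cycles (exact p = 0.25, the smallest that 3 cards allow), and the mean ΔCt was 14.0 to 14.9 for miR-146a and 9.14 to 9.22 for miR-146b. With the other endogenous controls as the reference the mean ΔCt was 7.69 and 2.25, and with the mean of the detectable miRNAs 4.04 and -1.40. Between reactions limma called 2 miRNAs on raw Ct, 0 at a Ct of 35 or less on all cards, 0 at a mean Ct of 32 or less, 1 with the replicate block and 0 to 1 with a card left out. Between days it called 2 at a mean Ct of 32 or less and 0 to 1 with a card left out. The methods' t-test, at an unadjusted p under 0.01, called 2 between reactions and 1 between days, and 0 in both after Benjamini-Hochberg adjustment. The replicate block changed no call of the members. Between the chips, limma called 42 to 67 miRNAs and the methods' t-test 41 at an unadjusted p under 0.01 (44 after adjustment), with the split of higher to lower calls going from 32 and 21 to 24 and 32 with background subtraction, 19 and 33 with quantile normalization and 21 and 46 with median centring. The cause of these changes was not tested. With background subtraction the log2 difference between the chips was -0.11 for miR-146a and -0.15 for miR-146b, next to a median of -0.13 over the 137 miRNAs tested. With quantile normalization it was 0.00044 and 0.0033, and with median centring -0.0069 and -0.010, respectively. Neither member reached a signal of 32 on both chips without the spots of column 3 or with the empty spots of the same column as background. Their means were under 32 before these changes, and both changes lowered those of chip 2. The alternatives therefore give no separate support for the members being undetected.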
